A study of Mus musculus with 6 samples.

Results

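The 10 genes described here encode the core of the β-catenin destruction complex, the casein kinases that prime it or act beside it, and the Dishevelled proteins that turn it off. They are Apc, Axin1, Gsk3a, Gsk3b, Csnk1a1, Csnk1d, Csnk1e, Dvl1, Dvl2 and Dvl3. The rule names them and uses no measured value, though the list was drawn up with earlier results of these data known. Each took the assembled transcripts that overlap its exons on the same strand in the GENCODE vM21 annotation of GRCm38, the assembly that mm10 denotes. A total of 125 assembled transcripts in 6 libraries fell to these genes, and all 10 were among the 12894 genes with enough signal to test.

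The study sequenced poly-adenylated RNA from the lower-back (lumbar) spinal cord, from the ventral side, which holds the motor neurons. There were 3 libraries from Gde2KO mice and 3 from wild-type (WT) mice, all 5 weeks old and of the C57BL/6 strain, with no treatment in either genotype. Gde2KO mice lack Gdpd5, which encodes GDE2, a membrane enzyme that cuts glycosylphosphatidylinositol-anchored proteins from the cell surface. The series' title places GDE2 upstream of canonical Wnt signalling in neurons, and the comparison asks which transcripts differ once it is lost. The labels name no conditional allele and no sort of cells, so the whole tissue of the mutant was measured. In such bulk samples, fewer cells of a type and less RNA per cell cannot be told apart. The labels give neither the sex nor the build of the Gde2KO allele, and they do not say whether the libraries came from separate animals, so every p-value below measures only the spread between these samples.

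Without a Wnt signal, β-catenin is bound by the scaffolds AXIN1 and APC, phosphorylated first by casein kinase 1α and then by GSK3α or GSK3β, and marked for the proteasome. When a Wnt ligand engages its Frizzled and LRP receptors, Dishevelled is recruited to the membrane, AXIN1 is drawn away and β-catenin escapes destruction. Most of this control runs through protein contacts and phosphorylation, which RNA levels do not show. In the cord, canonical Wnt signalling is known, among other roles, as a brake on the maturation of oligodendrocytes, the cells that make myelin.

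The assemblies held between 31899 and 33791 transcripts per library, and the relative depth, taken from coverage per FPKM unit, ran from 0.945 to 1.14 in Gde2KO and from 0.910 to 1.03 in WT. The genotype labels held for the targeted gene. Gdpd5 stood at 1.25, 1.20 and 0.952 FPKM in Gde2KO, against 5.41, 6.58 and 5.99 FPKM in WT, with a log2 difference of -2.31 (limma adjusted p = 0.00530). That call was lost by the plain sum of transcripts (-1.45, limma adjusted p = 0.0793). Markers of motor neurons were present, with 6 of 6 tested, while 5 of 6 sensory ganglion markers and 4 of 5 skeletal muscle markers were too low to test. A pair of Gde2KO libraries stood apart from the rest. In Gde2KO replicate 3, 56.2% of the multi-exon transcripts had exactly the introns of an annotated one, whereas the remaining 5 libraries had 49.3% to 49.8%. Gde2KO replicate 1 was the only library with the Y-linked transcript Ddx3y (21.5 FPKM) and was listed at 0 for Xist, which lay between 5.28 and 15.0 FPKM elsewhere. In the same library, the summed level of connective tissue markers was 33.4 FPKM, against 68.1 to 89.5 FPKM in the others. Results are therefore also given without these libraries.

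None of the 10 genes passed the test for a difference between Gde2KO and WT (limma, Benjamini-Hochberg adjusted p under 0.05 over all 12894 genes). Among all genes 0.116% passed. At an unadjusted p under 0.05, 1 of the 10 genes was found, against 3.91% of all genes. That gene was Dvl2, which was also the 1 gene of the 10 whose libraries did not overlap between genotypes, as 10.9% of all genes did in either direction and 5.79% with Gde2KO lower. The log2 difference lay below 0 for 8 of the 10 genes, against 49.9% of all genes, with a median of -0.07 beside 0.00 over all genes. Most of those differences were small, and 9 of the 10 intervals at 95% held 0. Gde2KO replicate 3 was the lowest of the 6 libraries for 5 of the 10 genes. Without it, 6 of the 10 genes lay below 0, and without both Gde2KO replicates 1 and 3 the number was also 6.

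**Figure D1:**
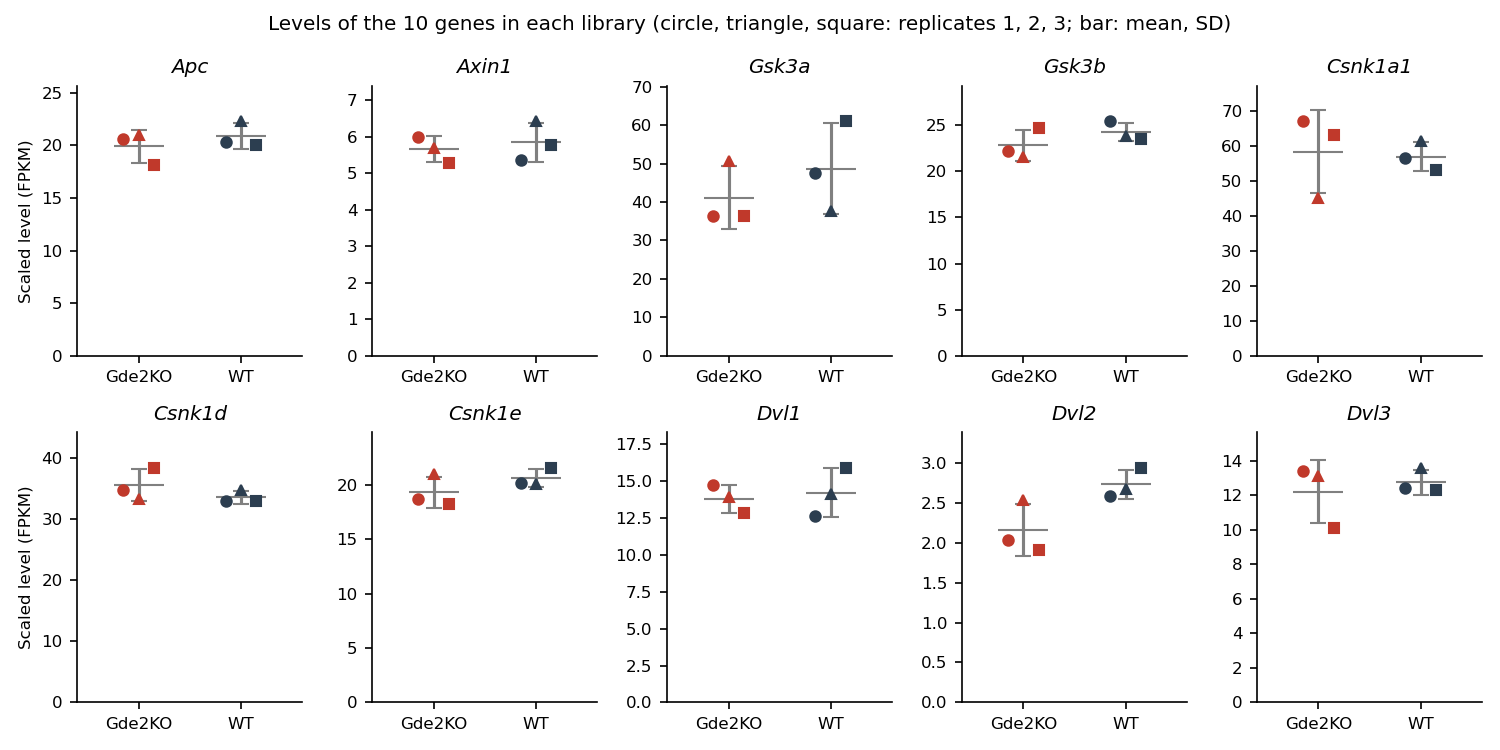
Scaled level (FPKM, linear axis from 0) of each of the 10 genes in each library, with Gde2KO in red left of WT in dark blue. Circle, triangle and square are replicates 1, 2 and 3, and the bar gives the mean and SD of 3 libraries. The genotypes overlap in every panel except that of Dvl2, where Gde2KO runs from 1.91 to 2.53 and WT from 2.59 to 2.94 FPKM.

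The 10 genes spanned a wide range of levels in the cord. On the FPKM scale, which is per transcript length, the mean over the 6 libraries was 57.8 for Csnk1a1, 44.9 for Gsk3a, 34.5 for Csnk1d, 23.5 for Gsk3b, 20.4 for Apc, 20 for Csnk1e, 14 for Dvl1, 12.5 for Dvl3, 5.75 for Axin1 and 2.44 for Dvl2. The kinases thus lay above the scaffold Axin1 and above every Dishevelled gene. Csnk1a1 and Gsk3a overlapped in their libraries, as did Apc with Csnk1e and Dvl1 with Dvl3, so the order within these pairs does not exceed the spread. Gsk3a overlapped Csnk1d in Gde2KO but not in WT. Gsk3b overlapped Apc over all 6 libraries but in neither genotype taken alone. Csnk1e over Dvl1, Dvl3 over Axin1 and Axin1 over Dvl2 were each separated in every library. Among all genes tested, Csnk1a1 stood at percentile 91.5 by mean level and Dvl2 at percentile 17.6.

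Apc encodes the large scaffold that holds β-catenin in the complex and also binds microtubules (ENSMUSG00000005871.15, chr18:34220924-34322552, plus strand). Its level was 20.6, 21.0 and 18.1 FPKM in Gde2KO, against 20.3, 22.3 and 20.0 FPKM in WT. The genotypes overlapped, with Gde2KO replicate 3 lowest and WT replicate 2 highest. The means were 19.9 ± 1.56 FPKM in Gde2KO and 20.9 ± 1.25 FPKM in WT (SD, n = 3 each), a log2 difference of -0.07 with an interval from -0.28 to 0.14 (limma adjusted p = 0.884).

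No library assembled Apc as a single transcript from its first exon to its end. It was assembled as 3, 5 and 4 partial transcripts in Gde2KO and as 4, 4 and 7 in WT. Several of these are alternative forms of the same stretch, so the counts are not numbers of breaks. By the plain sum of these transcripts the log2 difference of Apc was -0.42 in place of -0.07. The longest piece, which carries the very long last coding exon, had 22.0, 22.4 and 19.3 FPKM in Gde2KO, against 22.5, 25.2 and 21.7 FPKM in WT. It held between 10322 and 10747 bases. The pieces at the start of the gene were lower in FPKM and used 2 first exons. Transcripts from the upstream first exon summed to 6.61, 7.77 and 3.25 FPKM in Gde2KO, against 2.82, 10.6 and 6.81 FPKM in WT. Those from the downstream first exon summed to 4.63, 6.77 and 14.2 FPKM in Gde2KO, against 13.9, 0 and 7.57 FPKM in WT. Both first exons varied severalfold within each genotype and overlapped between them. A 0 in such an assembly can be a failed reconstruction.

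Axin1 encodes the scaffold on which the kinases, APC and β-catenin meet, held in Xenopus to be the scarcest component of the complex (ENSMUSG00000024182.16, chr17:26138688-26195811, plus strand). It had 5.98, 5.69 and 5.28 FPKM in Gde2KO, against 5.35, 6.42 and 5.76 FPKM in WT. The genotypes overlapped, with Gde2KO replicate 3 lowest and WT replicate 2 highest. The means were 5.65 ± 0.348 FPKM in Gde2KO and 5.84 ± 0.540 FPKM in WT, a log2 difference of -0.05 with an interval from -0.27 to 0.18 (limma adjusted p = 0.925). The sign of the Axin1 difference turned to 0.02 without WT replicate 2. The ratio of Apc to Axin1 within a library was 3.52 ± 0.153 in Gde2KO and 3.58 ± 0.189 in WT, so both scaffolds kept nearly the same proportion.

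Axin1 was assembled with and without an in-frame exon of 108 bases in all 6 libraries. The form with it, which matched Axin1-201 in every library except WT replicate 3, took 18.6%, 28.1% and 28.2% of the FPKM at that choice in Gde2KO, against 26.8%, 26.3% and 11.8% in WT. The form without it was the larger in every library, and the genotypes overlapped. The exon lies at chr17:26192516-26192623 on the plus strand of GRCm38. It is shown because it is the coding difference between both Axin1 forms, with the exon in capitals and 15 bases of each neighbouring exon in lower case:
Axin1 exon of 108 bases: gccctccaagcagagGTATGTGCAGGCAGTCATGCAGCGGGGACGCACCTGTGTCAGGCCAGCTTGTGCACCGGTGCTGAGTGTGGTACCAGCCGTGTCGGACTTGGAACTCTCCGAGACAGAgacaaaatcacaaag

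Gsk3a and Gsk3b encode the kinases GSK3α and GSK3β, which phosphorylate β-catenin after casein kinase 1α has primed it and which also act in insulin signalling and on microtubule proteins. Gsk3b (ENSMUSG00000022812.14, chr16:38089001-38246084, plus strand) had 22.2, 21.5 and 24.7 FPKM in Gde2KO, against 25.4, 23.8 and 23.5 FPKM in WT. Gde2KO replicates 1 and 2 lay below all WT libraries and Gde2KO replicate 3 lay among them. The means were 22.8 ± 1.72 FPKM in Gde2KO and 24.2 ± 1.01 FPKM in WT, a log2 difference of -0.09 with an interval from -0.28 to 0.10 (limma adjusted p = 0.882).

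Gsk3b was reconstructed as the same 2 forms in every library, Gsk3b-201 and Gsk3b-202, which differ by an in-frame exon of 39 bases in the kinase-coding region. The form with this exon is known as GSK3β2 and is enriched in the nervous system. It took 37.3%, 41.0% and 34.0% of Gsk3b in Gde2KO, against 36.8%, 45.4% and 44.2% in WT. Its mean share was 37.4 ± 3.48% in Gde2KO and 42.1 ± 4.66% in WT, with overlapping libraries (limma on the log-odds of the share, adjusted p = 0.909). The exon lies at chr16:38217113-38217151 on the plus strand of GRCm38. It is shown, in capitals between 15 bases of each neighbouring exon, because its share was measured in all 6 libraries:
Gsk3b exon of 39 bases: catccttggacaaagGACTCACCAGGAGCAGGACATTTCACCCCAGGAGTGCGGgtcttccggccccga

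The far end of Gsk3b was assembled differently in 1 library. In Gde2KO replicate 2 the transcripts were 8910 and 8949 bases long and ran into the annotated distal 3′ end, whereas in the other libraries they were 2869 to 3346 bases long. FPKM multiplied by assembled length, a measure of the fragments given to the gene, was 73.2, 191 and 71.6 in Gde2KO, against 84.4, 79.5 and 74.4 in WT. On that measure Gsk3b had a log2 difference of 0.36, the opposite sign to its level, with Gde2KO replicate 2 alone far above the other libraries.

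Gsk3a (ENSMUSG00000057177.12, chr7:25228258-25237851, minus strand) had 36.4, 50.7 and 36.4 FPKM in Gde2KO, against 47.5, 37.6 and 61.0 FPKM in WT. The libraries fell into a lower and a higher set that crossed the genotypes. The means were 41.2 ± 8.26 FPKM in Gde2KO and 48.7 ± 11.7 FPKM in WT, a log2 difference of -0.23 with an interval from -0.78 to 0.31 (limma adjusted p = 0.882). This was the least precise of the 10 genes, with a within-genotype SD of 0.31 on the log2 scale, at percentile 82.9 of all genes.

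The sets followed the way Gsk3a was assembled. In Gde2KO replicates 1 and 3 and WT replicate 2 it was 1 transcript of 35.8, 36.3 and 38.1 FPKM. In Gde2KO replicate 2 and WT replicates 1 and 3 it was broken into a coding piece of 64.7, 67.0 and 69.3 FPKM and a separate piece of the 3′ end. The fragment measure, FPKM multiplied by length in kilobases, was 108, 125 and 126 in Gde2KO, against 125, 119 and 138 in WT. Its log2 difference was -0.06, nearer to 0 than the difference in level, while the plain sum of pieces gave -0.54 and leaving out WT replicate 3 gave -0.05. In 5 of the 6 libraries the assembled 3′ end ran 747 to 769 bases past the annotated end, and in WT replicate 3 it ran 35 bases past it. The span of a gene on the opposite strand, 9130221H12Rik, overlaps that of Gsk3a, and no label says that the reads kept their strand. The ratio of Gsk3a to Gsk3b was 1.83 ± 0.473 in Gde2KO and 2.02 ± 0.524 in WT.

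**Figure D2:**
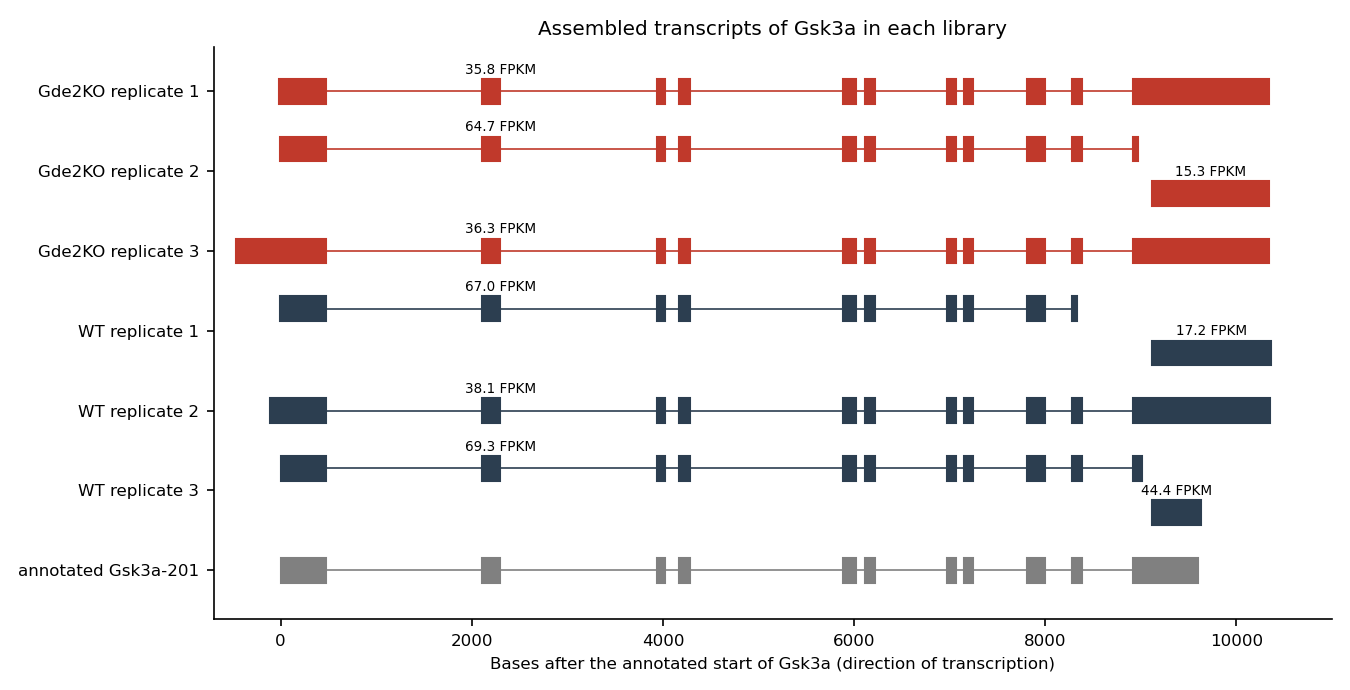
Assembled transcripts of Gsk3a in each library (Gde2KO red, WT dark blue) above the annotated transcript (grey), plotted by distance in bases from the annotated start. Boxes are exons and lines are introns, and the number above a transcript is its FPKM. The coding part stands at 35.8 to 38.1 FPKM where 1 transcript was assembled and at 64.7 to 69.3 FPKM where the 3′ end was split off, in both genotypes.

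Csnk1a1 encodes casein kinase 1α, which places the priming phosphate on β-catenin (ENSMUSG00000024576.14, chr18:61555274-61590061, plus strand). It had 67.2, 45.1 and 63.2 FPKM in Gde2KO, against 56.6, 61.4 and 53.1 FPKM in WT. Gde2KO held both the highest and the lowest library, with the WT libraries between them. The means were 58.5 ± 11.8 FPKM in Gde2KO and 57.0 ± 4.15 FPKM in WT, a log2 difference of 0.02 with an interval from -0.39 to 0.43 (limma adjusted p = 0.990). The sign turned to -0.02 over coding bases only, to -0.02 without scaling, to -0.09 without Gde2KO replicate 1, and to -0.34 without Gde2KO replicates 1 and 3. In the other direction, it was 0.30 by fragments per gene, 0.15 by the plain sum of transcripts and 0.19 without Gde2KO replicate 2. The lowest library, Gde2KO replicate 2, was again the one with long 3′ ends, with transcripts of 4208 and 4244 bases beside a truncated piece.

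Both alternative coding stretches of Csnk1a1 were assembled in each library. The exon of 84 bases was in 41.5%, 42.8% and 52.8% of the FPKM in Gde2KO, against 48.9%, 51.1% and 50.2% in WT. Gde2KO replicates 1 and 2 lay below WT and replicate 3 above it. The stretch of 36 bases at an alternative donor site was in 31.4%, 33.9% and 47.2% in Gde2KO, against 37.7%, 48.9% and 49.8% in WT. Gde2KO replicate 3 lay among the WT libraries while replicates 1 and 2 lay below them.

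Csnk1d and Csnk1e encode casein kinases 1δ and 1ε, close relatives that phosphorylate Dishevelled in Wnt signalling and set the period of the circadian clock. Csnk1d (ENSMUSG00000025162.17, chr11:120961749-120991330, minus strand) had 34.8, 33.3 and 38.4 FPKM in Gde2KO, against 33.0, 34.7 and 32.9 FPKM in WT. Gde2KO replicate 3 was the highest and the others lay within 2 FPKM of each other. The means were 35.5 ± 2.63 FPKM in Gde2KO and 33.5 ± 1.04 FPKM in WT, a log2 difference of 0.08 with an interval from -0.10 to 0.26 (limma adjusted p = 0.882). Csnk1d was the most evenly measured of the 10 genes, with a within-genotype SD of 0.08 on the log2 scale.

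Every library held the same 2 Csnk1d transcripts, which end in different coding sequence. Csnk1d-202, which carries an extra exon of 63 bases before the last exon, took 58.1%, 57.5% and 51.4% in Gde2KO, against 56.4%, 60.7% and 57.1% in WT. Gde2KO replicate 3 was the lowest and the genotypes overlapped (limma on the log-odds, adjusted p = 0.935). The coding ends are shown because they are what differs between both kinase forms. Capitals mark the bases that are coding in 1 form only, lower case the last 15 bases of the shared exon before them. The 48 bases that end Csnk1d-201 also lie in the last exon of Csnk1d-202, after its coding end. On the minus strand of GRCm38, the exon of 63 bases, of which 30 are coding, lies at chr11:120964948-120965010. The end of Csnk1d-201 lies at chr11:120963859-120963906:
Csnk1d-202 coding end: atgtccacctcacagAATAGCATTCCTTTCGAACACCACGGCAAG
Csnk1d-201 coding end: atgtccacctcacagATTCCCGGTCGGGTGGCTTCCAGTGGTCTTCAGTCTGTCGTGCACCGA

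Csnk1e (ENSMUSG00000022433.19, chr15:79417856-79455566, minus strand) had 18.7, 21.0 and 18.3 FPKM in Gde2KO, against 20.2, 20.1 and 21.6 FPKM in WT. Gde2KO replicates 1 and 3 lay below every WT library and replicate 2 lay among them. The means were 19.3 ± 1.47 FPKM in Gde2KO and 20.6 ± 0.831 FPKM in WT, a log2 difference of -0.10 with an interval from -0.28 to 0.09 (limma adjusted p = 0.882). The ratio of Csnk1d to Csnk1e was 1.85 ± 0.258 in Gde2KO and 1.63 ± 0.103 in WT, with Gde2KO replicate 2 inside the WT range. The 3 casein kinase levels summed to 121, 99.4 and 120 FPKM in Gde2KO, against 110, 116 and 108 FPKM in WT.

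Dvl1, Dvl2 and Dvl3 encode the 3 Dishevelled proteins, which bind Frizzled, polymerise through their DIX domain and draw AXIN1 to the membrane. They also pass on planar cell polarity signals. Dvl2 (ENSMUSG00000020888.16, chr11:70000595-70012301, plus strand) had 2.03, 2.53 and 1.91 FPKM in Gde2KO, against 2.59, 2.67 and 2.94 FPKM in WT. Every Gde2KO library lay below every WT library, and the gap between the nearest of them, Gde2KO replicate 2 and WT replicate 1, was 0.06 FPKM. The mean was 20.9% lower in Gde2KO, with 2.16 ± 0.328 FPKM in Gde2KO and 2.73 ± 0.186 FPKM in WT (SD, n = 3 each). The log2 difference was -0.34 with an interval from -0.65 to -0.03. The unadjusted limma p was 0.0374 and the adjusted p was 0.882, so the difference did not pass.

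The assembly of Dvl2 was the simplest of the 10 genes. Each library held 1 transcript, the 15-exon chain of Dvl2-201, of 2977 to 3036 bases, so its value does not depend on how pieces were joined. The authors' confidence bounds for that transcript were 1.74 to 2.25, 2.22 to 2.78 and 1.69 to 2.11 FPKM in Gde2KO, against 2.39 to 2.94, 2.46 to 2.99 and 2.63 to 3.22 FPKM in WT. The bounds of Gde2KO replicate 2 thus overlapped those of all WT libraries. The direction was the same under all 19 alternatives in which Dvl2 could be fitted, with log2 differences from -0.45 to -0.11. Leaving out libraries could hardly reverse it, because no Gde2KO library reached a WT library. Where each genotype kept more than 1 library, the unadjusted limma p ran from 0.00664 to 0.111. The smallest difference, -0.11, came without Gde2KO replicates 1 and 3, which leaves only the highest Gde2KO library. Without Gde2KO replicate 3 alone it was -0.26, and without Gde2KO replicate 1 alone it was -0.30. Endothelial markers were also lower in sum, with 50.3, 47.2 and 43.6 FPKM in Gde2KO, against 57.0, 51.5 and 47.4 FPKM in WT, so that the genotypes overlapped, and 5 of their 5 genes lay below 0. Connective tissue markers also had 5 of 5 genes below 0 and Schwann cell markers 4 of 5, beside 49.9% of all genes. Both sums were lowest in Gde2KO replicate 1 and stood at 80.1 and 283 FPKM in Gde2KO replicate 3. Superficial dorsal horn markers had 5 of 7 tested genes below 0 and red blood cell markers 2 of 2. Motor neuron and astrocyte markers had 1 of 6 each. Markers of neurons had 5 of 8 below 0, of oligodendrocytes 3 of 7, of their precursors 2 of 5 and of microglia 3 of 6. The part of these cells in the Dvl2 value was not tested. The annotated span of Acadvl, on the opposite strand, overlaps that of Dvl2, and at shared bases the reads of the pair cannot be told apart if strand was not kept. Of the 10 genes, 9 have such a neighbour, and Csnk1a1 has none.

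Dvl1 (ENSMUSG00000029071.16, chr4:155847402-155859303, plus strand) had 14.7, 13.9 and 12.8 FPKM in Gde2KO, against 12.6, 14.1 and 15.9 FPKM in WT. The Gde2KO libraries lay wholly within the WT range. The means were 13.8 ± 0.975 FPKM in Gde2KO and 14.2 ± 1.62 FPKM in WT, a log2 difference of -0.04 with an interval from -0.29 to 0.22 (limma adjusted p = 0.951). The sign turned to 0.27 by the plain sum of transcripts, to 0.02 without Gde2KO replicate 3 and to 0.05 without WT replicate 3. Dvl3 (ENSMUSG00000003233.12, chr16:20516982-20534010, plus strand) had 13.4, 13.1 and 10.1 FPKM in Gde2KO, against 12.4, 13.6 and 12.3 FPKM in WT. Gde2KO replicate 3 was the lowest and its 5 companions lay together. The means were 12.2 ± 1.84 FPKM in Gde2KO and 12.8 ± 0.736 FPKM in WT, a log2 difference of -0.07 with an interval from -0.38 to 0.24 (limma adjusted p = 0.908). Without Gde2KO replicate 3, the difference of Dvl3 turned to 0.06.

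Dvl2 was the smallest part of the Dishevelled RNA, with 6.72%, 8.56% and 7.70% of the summed level in Gde2KO, against 9.37%, 8.81% and 9.45% in WT. The sum itself was 30.2, 29.5 and 24.8 FPKM in Gde2KO, against 27.6, 30.4 and 31.1 FPKM in WT. These sums overlapped, with Dvl1 and Dvl3 making up most of the RNA in each library.

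Dvl1 held the 1 splice choice of the 10 genes whose genotypes did not overlap. A stretch of 39 bases between coding exons, annotated only in a non-coding Dvl1 transcript, was in 25.0%, 23.0% and 35.2% of the FPKM in Gde2KO, against 67.7%, 36.9% and 35.6% in WT. All Gde2KO libraries lay below all WT libraries, but Gde2KO replicate 3 and WT replicate 3 nearly met, and WT replicate 1 stood far above the rest. Each Gde2KO library also held a partial Dvl1 transcript, of 4.37, 10.5 and 4.10 FPKM, and no WT library did. The one of 4.37 FPKM makes up the whole 25.0% in Gde2KO replicate 1. That of 10.5 FPKM in Gde2KO replicate 2 ends before the stretch and is not in its share. That of 4.10 FPKM in Gde2KO replicate 3 lacks the stretch and adds to the FPKM without it. The full-length transcripts of that library had 5.11 FPKM with the stretch and 5.31 FPKM without it. By these alone, Gde2KO replicate 3 would not lie below all WT libraries. The part of this assembly difference in the shares was not tested. The mean share was 27.7 ± 6.56% in Gde2KO and 46.7 ± 18.1% in WT. Among choices measured in all 6 libraries, 9.81% did not overlap between genotypes, and no exact permutation test of 3 against 3 libraries can give a two-sided p below 0.10.

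A second Dvl1 choice adds 75 coding bases at an alternative donor site. These bases were in 75.0%, 100% and 71.8% in Gde2KO, against 32.3%, 100% and 100% in WT. WT replicate 1 was the lowest here and the highest for the 39 bases, because the single assembled transcript of 10.2 FPKM in that library carries the 39 bases and lacks the 75. Both stretches are shown, in capitals between the 15 bases on either side in the spliced transcript, because Dvl1 holds the choice without overlap. They lie on the plus strand of GRCm38 at chr4:155857496-155857534 and chr4:155855545-155855619:
Dvl1 stretch of 39 bases: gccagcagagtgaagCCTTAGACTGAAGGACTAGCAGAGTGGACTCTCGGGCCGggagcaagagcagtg
Dvl1 stretch of 75 bases: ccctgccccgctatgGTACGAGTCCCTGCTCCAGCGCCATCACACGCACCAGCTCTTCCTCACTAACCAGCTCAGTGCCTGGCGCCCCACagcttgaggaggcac

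Across the 10 genes, 11 splice choices were assembled, and 7 of them in both forms in all 6 libraries. The alternative stretch was a multiple of 3 bases in all 7, and its mean share was lower in Gde2KO in 6 of them, beside 50.4% of all such choices. Not every stretch is fully coding, as the 39 bases of Dvl1 hold no annotated coding base and only 30 of the 63 of Csnk1d are coding. Both Csnk1a1 choices come from the same transcripts, so the 7 are not independent. The remaining one not yet described, an exon of 153 bases near the start of Apc, was in 58.8%, 55.7% and 48.1% in Gde2KO, against 54.1%, 67.0% and 49.0% in WT, and the genotypes overlapped. Of 2321 isoforms tested across all genes, 0.603% had a changed share. The 10 genes contributed 4 of these isoforms, 2 of Gsk3b and 2 of Csnk1d. None was called, with a smallest unadjusted p of 0.376 (limma, smallest adjusted p = 0.909). Both forms of a gene make up all of its FPKM in every library, so their shares mirror each other and each pair is 1 comparison.

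**Figure D3:**
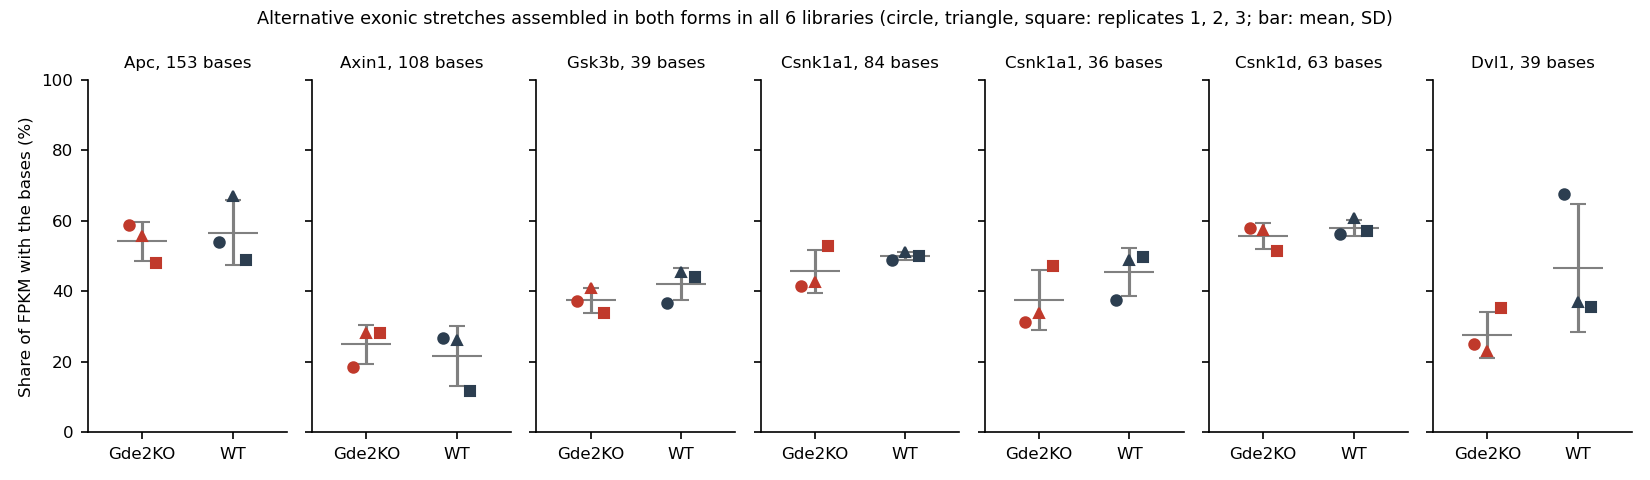
Share of FPKM (in percent) with the alternative stretch, for the 7 choices assembled in both forms in all 6 libraries, with Gde2KO in red left of WT in dark blue. Points are libraries (circle, triangle, square for replicates 1, 2, 3) and bars the mean and SD of 3. The Dvl1 panel is the 1 without overlap, 23.0% to 35.2% in Gde2KO against 35.6% to 67.7% in WT.

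The precision of these comparisons can be read from the intervals. On either side of the estimate the 95% interval reached from 0.18 for Csnk1d to 0.55 for Gsk3a on the log2 scale, against a median reach of 0.28 over all genes. On simulated data with these libraries' spread, the same test recovered 152 of 200 genes changed 2-fold, with 10 false calls. Those genes were drawn from all genes tested, and smaller changes were not simulated. The rate is therefore not a measure of the precision for the 10 genes.

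**Figure D4:**
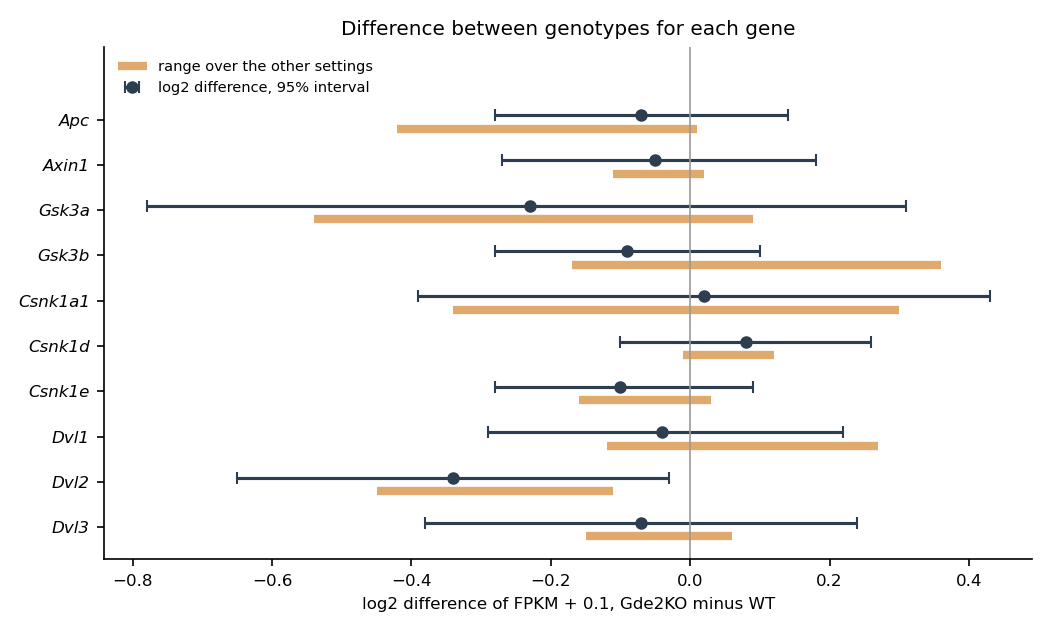
Log2 difference (Gde2KO minus WT, FPKM + 0.1) of each of the 10 genes with its 95% interval in dark blue, above the range over the other processing settings in orange. The intervals of 9 genes cross 0, Dvl2 runs from -0.65 to -0.03, and the orange ranges of all genes except Dvl2 reach or cross 0.

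Other genes of the destruction complex and of β-catenin turnover were measured beside the 10. All 25 listed were tested and 0 passed, with 1 at an unadjusted limma p under 0.05, beside 3.91% of all genes. Their median log2 difference was 0.01, with 13 above 0 and 12 below. Beside 10.9% of all genes, 4 of the 25 did not overlap between genotypes, Btrc and Ppp2r5b with Gde2KO lower and Ctnnb1 and Skp1a with Gde2KO higher. Btrc, the F-box protein that recognises phosphorylated β-catenin, had the smallest p, with 14.6, 14.8 and 15.1 FPKM in Gde2KO, against 19.1, 19.3 and 19.4 FPKM in WT. The genotypes lay well apart with little spread, at a log2 difference of -0.38 (limma adjusted p = 0.184). The size of the Btrc value depended on the measure. It was -0.63 over coding bases only, which passed (adjusted p = 0.0368), -1.26 by the plain sum of transcripts, and -0.07 by fragments per gene (adjusted p = 0.857).

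Axin2, a second AXIN scaffold and a known target of β-catenin, had 1.77, 2.23 and 1.74 FPKM in Gde2KO, against 2.72, 2.04 and 2.35 FPKM in WT. The libraries overlapped through Gde2KO replicate 2 and WT replicate 2 (log2 difference -0.29, limma adjusted p = 0.882). Ppp2r5e, a regulatory subunit of the phosphatase PP2A, had a log2 difference of 0.16 (limma adjusted p = 0.882). Ctnnb1, which encodes β-catenin itself, had 108, 109 and 118 FPKM in Gde2KO, against 105, 106 and 98.8 FPKM in WT. Its genotypes did not overlap but lay close (log2 difference 0.11, limma adjusted p = 0.882).

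Of 24 partners and effectors of Dishevelled, 23 were tested and 0 passed, with 0 at an unadjusted limma p under 0.05. Their median log2 difference was -0.01 and none was without overlap. The 3 of smallest p were Dact2, a DACT-family protein that binds Dishevelled (-0.13), the planar polarity membrane protein Vangl2 (-0.12) and the deubiquitinase Cyld (0.12).

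Of 13 further casein kinase and GSK3 regulators, all were tested and 0 passed, with 0 at an unadjusted limma p under 0.05. Their median log2 difference was -0.01. Csnk2a1, a catalytic subunit of casein kinase 2, had the smallest p, with 8.85, 20.5 and 9.23 FPKM in Gde2KO, against 21.0, 19.1 and 20.1 FPKM in WT. Gde2KO replicate 2 sat with WT and the other Gde2KO libraries far below (log2 difference -0.75, limma adjusted p = 0.882). Without Gde2KO replicate 2 the difference was -1.14 and passed (adjusted p = 0.0209), while by fragments per gene it was 0.09. Gskip, which binds GSK3β, had a log2 difference of 0.32, and Frat2, another GSK3-binding protein, had 0.20.

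**Figure D5:**
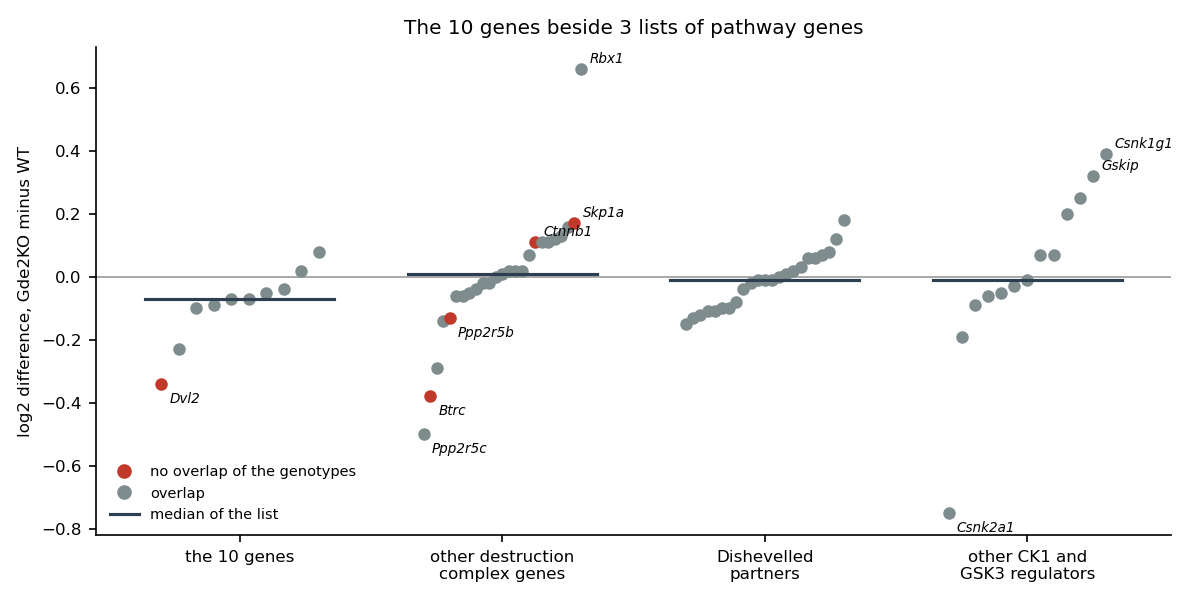
Log2 difference (Gde2KO minus WT) of each tested gene of the 4 lists, ordered within a list, with the list's median as a bar. Red points are genes whose libraries do not overlap between genotypes, namely Dvl2 among the 10 genes and 4 of the other destruction complex genes, and grey points overlap. The medians lie at -0.07, 0.01, -0.01 and -0.01.

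As a description, the gene whose scaled log2 level followed each of the 10 most closely over the 6 libraries was looked up among the 8218 other genes with a mean of at least 5 FPKM (8219 for Dvl2, itself below that mean). The closest to Dvl2 was Exosc10, with a Pearson r of 0.990, and the closest to Axin1 was Ppp2r5d, a PP2A subunit gene, with r of 0.978. Csnk1e was closest to Ppp2r1a (r of 0.995), Csnk1d to Tnpo1 (r of 0.997), Dvl3 to Brd7 (r of 0.996), and Apc to Arid4b (r of 0.994). Gsk3b was closest to Tub (r of 0.975), Gsk3a to Zfpl1 (r of 0.983), Csnk1a1 to Srxn1 (r of 0.987) and Dvl1 to Picalm (r of 0.994). With 6 points that share library depth and assembly, the highest of 8218 coefficients is close to 1 for almost any gene, so these names carry no weight of their own.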

How the data were processed

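The submitters' processing notes name FastQC (version not given in the sources used here), TopHat2 2.1.1, Cufflinks 2.2.1, Cuffdiff 2.2.1 and the build mm10. The deposited values are FPKM (fragments per kilobase of transcript, scaled to library size) of each transcript assembled in 1 library, with other attributes such as confidence bounds made by the authors. Read counts are not in these values, so no count test was run.

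Transcripts of at least 200 bases were matched to GENCODE vM21 exons on the same strand, and the 13.1% to 14.1% per library without an assembled strand on either. At every counted base the FPKM of all transcripts over it were added, and a gene's level was the mean of these sums. Counted bases were those held by no other gene on that strand and assembled in at least 3 of 6 libraries. Genes with at least 200 such bases and a mean of at least 1 FPKM (12894) were scaled by median-of-ratios factors and tested on log2(FPKM + 0.1) using limma 3.58.1 (R 4.3.3), two-sided, with an intensity trend, robust moderation and Benjamini-Hochberg adjustment at 0.05. Log2 differences carry the pseudocount of 0.1, which shrinks those of low genes. Isoform shares of 10% to 90%, in genes with a mean of at least 5 FPKM, were tested on the log-odds scale with limma. The tests were tried on simulated data, where 10 false calls stood beside the 152 of 200 changes recovered.

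The 10 genes, the pathway lists and the markers were chosen with earlier results of these data known. Named beyond the 10 are Gdpd5, the 3 genes of smallest p of each list, any that passed, and the most alike gene of each. Ctnnb1, Ppp2r5b and Skp1a were chosen after their values were seen, as were the single Btrc and Csnk2a1 alternatives. A total of 20 alternatives were fitted for genes. Sequences were read from the GENCODE vM21 transcripts. Those of genes on chromosome 18, and amino acid sequences, are not shown.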

Additional observations from a re-analysis of the deposited data

How the results depend on the processing

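None of the 10 genes passed under any of the 20 alternatives (smallest limma adjusted p = 0.765), and no isoform share of theirs did under the 9 alternatives run for shares. Of 199 values, 180 kept their direction and 19 did not. Dvl2 kept its direction throughout, which leaving out libraries could hardly change, because its genotypes did not overlap. Reversed values were 0.27 for Dvl1 by the plain sum of transcripts, 0.36 for Gsk3b, 0.09 for Csnk2a1 and -0.02 for Frat2 by fragments per gene, and, for Csnk1a1, -0.02 over coding bases only, -0.03 over bases assembled in all 6 libraries and -0.02 without scaling, where the median of all genes moved to -0.03. Without Gde2KO replicates 1 and 3, an alternative added after seeing the data, they were 0.01 for Apc, 0.09 for Gsk3a, -0.34 for Csnk1a1, -0.01 for Csnk1d, 0.03 for Csnk1e, 0.04 for Dvl3 and 0.03 for Csnk2a1. With each library left out in turn, Csnk1a1 ran from -0.09 to 0.19, Axin1 from -0.11 to 0.02, Dvl1 from -0.12 to 0.05 and Dvl3 from -0.15 to 0.06. The sign held but the size moved for Apc (-0.11 to -0.00, nearest 0 without Gde2KO replicate 3), Gsk3b (-0.15 to -0.05, nearest 0 without Gde2KO replicate 2), Csnk1d (0.02 to 0.12, nearest 0 without Gde2KO replicate 3), Csnk1e (-0.16 to -0.06, largest without Gde2KO replicate 2) and Gsk3a (-0.40 to -0.05, nearest 0 without WT replicate 3). The cause was not tested. Leaving out 1 library leaves 2 in its genotype, and leaving out both leaves 1, which is then assumed to vary like WT.

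Gdpd5 kept its direction throughout but did not pass by the plain sum of transcripts (log2 difference -1.45, adjusted p = 0.0793) or with a replicate block (-2.31, adjusted p = 0.155). The number of all genes called ran from 1 to 26, and was 62 without Gde2KO replicates 1 and 3, against 15. Replicate numbers are shared by the genotypes but do not pair the libraries: same-numbered libraries had correlations of their deviations of 0.01, 0.04 and -0.07. With the replicate block 2 genes were called in all, and of the 10 genes 0 were called, with no p under 0.05 (smallest adjusted p = 0.867). Depth in reads is unknown, so no counting interval is given, and a difference that did not pass is not shown to be absent.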
